A study of Homo sapiens with 12 samples.

Results

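The 42 genes described here encode the machinery of G2 phase and mitosis: the kinases and cyclins that start cell division, the proteins that build the spindle and attach chromosomes to it, and those that separate the chromosomes and divide the cell. They were taken from a list of gene names, and all 42 were found among the 11548 genes of the table. RNA of 3 human hepatocellular carcinoma (HCC) cell lines, Hep3B, MHCC97H and Huh7, had been sequenced after 4 treatments: untreated, AZD8055, compound #57, and the combination of both. AZD8055 blocks the kinase mTOR, the hub of growth and nutrient signalling, and was used at 100 nM. Compound #57 inhibits SHP2, the phosphatase encoded by PTPN11 that passes signals from receptor tyrosine kinases on to RAS. It was used at 5 µM in the combination, and its dose in the single treatment is not given in the sources used here. Hep3B and Huh7 cells were exposed for 48 h and MHCC97H cells for 24 h, so that wherever MHCC97H differs from the other lines the time of exposure and the line cannot be told apart. Every library carries the genotype WT in its labels. Each line and treatment had 1 library, 12 in all, and the 3 lines therefore served as the replicates of a treatment.

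The libraries held 10667343 to 15968317 reads, and single members had between 81 and 13277 reads in a library. Levels are given as normalised reads, that is reads per 10000000 reads of the library. In Hep3B and Huh7 the hepatocyte genes were abundant, with 119554 to 402282 normalised reads of ALB in Hep3B and 23874 to 76438 in Huh7. MHCC97H libraries held 142 to 732 normalised reads of ALB and at most 2 of TTR, 7 of APOA2 and 8 of APOA1, while the hepatocyte transcription factor HNF4A stood at 595 to 1650. The endothelial marker PECAM1 was at 285 to 541 normalised reads in MHCC97H and the collagen gene COL1A2 at 630 to 1016 in Huh7.

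Most genes of this group are transcribed late in the cell cycle. The MuvB complex holds them silent in resting cells together with RB-like proteins and E2F4, and activates them in G2 together with the transcription factors MYBL2 and FOXM1. MuvB binds a short promoter element, the cell cycle genes homology region (CHR), and the factor NF-Y binds CCAAT boxes upstream of it. In HCC, as in other tumours, the RNA of these genes is widely used as a measure of proliferation. All values below are shares of a library's reads in bulk RNA, in which fewer dividing cells and less RNA per cell cannot be told apart.

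RefSeq promoter windows of GRCh38.p14, each from 250 bases before to 50 bases after the transcription start, were found for 35 of the 42 genes. The letters searched for CHR were TTTGAA with its complement TTCAAA, and the palindrome TTCGAA. They stood in the last 120 bases of the window in 23 of them, or 65.7%. Over the 8714 genes of the table with a window, that share was 3.67%. At least 1 CCAAT or its complement ATTGG was found in 71.4% of the 35 windows, against 37.1% of all, and at least 2 in 42.9% against 14.1%. Both features together, at least 2 CCAAT letters and a CHR near the start, occurred in 11 of the 35 windows, 31.4%, against 0.7% of all windows. Among 48 other G2/M genes 24 of 39 windows, or 61.5%, held the CHR letters near the start. Of 32 DNA replication genes, which are transcribed earlier in the cycle, 27 had a window and 0 had CHR letters in its last 120 bases. The 5 promoters below are printed to show this arrangement, those with the CHR letters nearest the start among the genes with at least 2 CCAAT letters for which reads are given below. Each runs 5′ to 3′ on the gene's own strand from 150 bases before to 30 bases after the start. Capitals mark CCAAT boxes on either strand and CHR letters.
BUB1 (chr2:110678034-110678213, minus strand): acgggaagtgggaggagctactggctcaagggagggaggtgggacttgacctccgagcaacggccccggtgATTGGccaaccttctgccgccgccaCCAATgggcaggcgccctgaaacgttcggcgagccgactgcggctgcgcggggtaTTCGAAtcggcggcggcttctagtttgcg
SPC25 (chr2:168890401-168890580, minus strand): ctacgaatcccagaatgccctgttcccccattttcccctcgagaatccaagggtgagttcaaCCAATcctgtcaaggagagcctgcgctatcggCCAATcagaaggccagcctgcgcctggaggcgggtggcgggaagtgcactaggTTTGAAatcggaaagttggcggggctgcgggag
INCENP (chr11:62123861-62124040, plus strand): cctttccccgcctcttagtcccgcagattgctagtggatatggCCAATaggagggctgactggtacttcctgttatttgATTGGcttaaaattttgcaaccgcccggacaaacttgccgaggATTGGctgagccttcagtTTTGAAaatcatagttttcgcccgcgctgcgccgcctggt
CCNB2 (chr15:59104996-59105175, plus strand): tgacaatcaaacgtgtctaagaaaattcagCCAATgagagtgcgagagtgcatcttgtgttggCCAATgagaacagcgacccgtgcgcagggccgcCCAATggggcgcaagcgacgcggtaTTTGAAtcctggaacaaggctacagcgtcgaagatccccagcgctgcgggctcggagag
MKI67 (chr10:128126394-128126573, minus strand): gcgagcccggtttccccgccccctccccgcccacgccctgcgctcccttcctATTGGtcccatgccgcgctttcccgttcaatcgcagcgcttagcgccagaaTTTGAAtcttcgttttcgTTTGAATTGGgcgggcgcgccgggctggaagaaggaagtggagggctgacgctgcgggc
The CHR letters of SPC25 began 3 bases and those of INCENP 10 bases before the start. In BUB1 they began at the second transcribed base. CCNB2 carried CCAAT letters at 120, 87 and 54 bases before the start, with the CHR letters at 29 bases. MKI67 had CHR letters at 47 and at 29 bases before the start, and the last letter of the latter is also the first of an ATTGG. A match of letters is a description of the sequence and was not tested for binding.

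**Figure D1:**
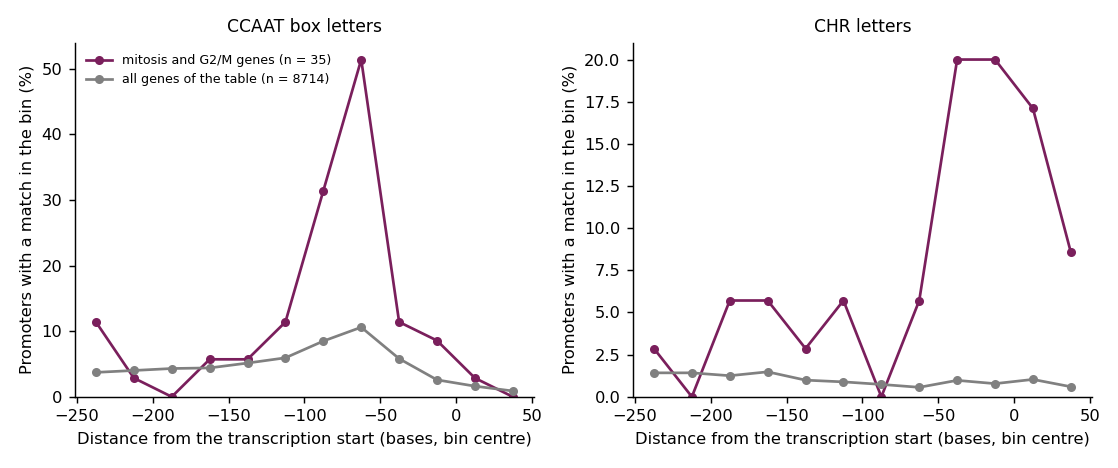
Share of promoter windows (y axis, %) with CCAAT letters (left) or CHR letters (right) starting in each bin of 25 bases, against the distance of the bin centre from the transcription start (x axis, bases). The 35 windows of mitosis and G2/M genes (purple) peak at 51.4% for CCAAT between 75 and 50 bases before the start and at 20% for CHR letters in each of the bins from 50 bases before the start up to it, while all 8714 windows (grey) stay lower in those bins.

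Together the 42 genes took 78.9 of every 10000 reads in untreated Hep3B cells, 65.9 with AZD8055, 51.9 with compound #57 and 46.6 with the combination. The MHCC97H libraries gave 71.4 untreated, 42.8 with AZD8055, 62.3 with compound #57 and 47.6 with the combination. The Huh7 libraries gave 72.7, 64.9, 64.4 and 38.8 in the same order. All 9 treated libraries thus lay below the untreated library of their line. The lowest sum was reached with the combination in Hep3B and Huh7 but with AZD8055 alone in MHCC97H.

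**Figure D2:**
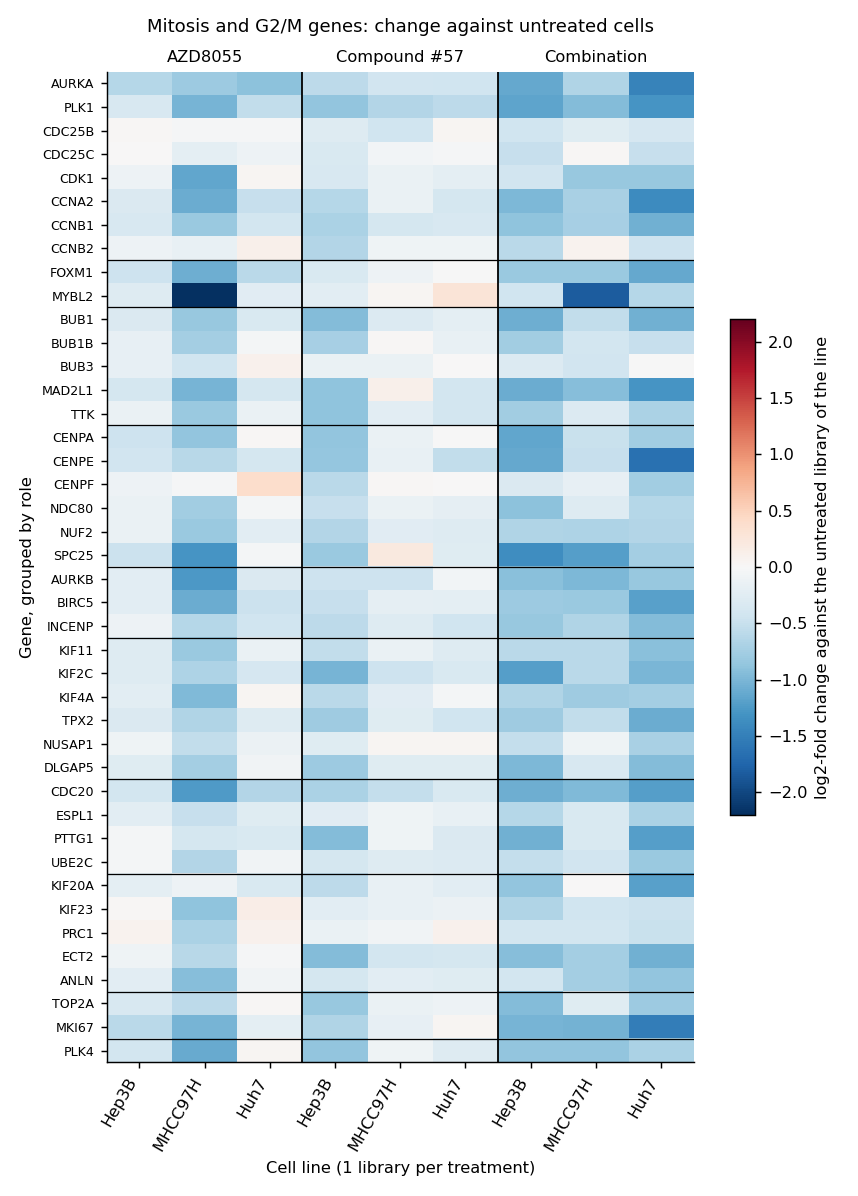
Log2-fold change of each of the 42 genes (rows, grouped by role) against the untreated library of the same line, for AZD8055, compound #57 and the combination (column blocks) in Hep3B, MHCC97H and Huh7, 1 library each. Blue is lower and red higher than untreated. AZD8055 is darkest in MHCC97H, compound #57 in Hep3B, and the combination is blue for all 42 genes in Hep3B and Huh7 and for 39 of them in MHCC97H, with MYBL2 in MHCC97H at -2.30 with AZD8055 as the darkest cell.

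Before any change, levels differed widely between the genes. Per kilobase of canonical transcript, untreated cells held 2070 normalised reads of TOP2A in Hep3B, 1140 in MHCC97H and 1460 in Huh7. TPX2, which organises spindle microtubules and activates AURKA, stood at 1500, 1370 and 1660 on the same scale, and UBE2C, the ubiquitin-conjugating enzyme of the anaphase-promoting complex (APC/C), at 1420, 1330 and 1520. PLK4, the kinase that starts centriole duplication, was at the other end with 86.7, 90 and 121. CDC25C, a phosphatase that activates CDK1, had 130, 49.5 and 172, the lowest level of the 42 in MHCC97H but not in Huh7. TOP2A led in Hep3B and TPX2 in the other two lines. These are levels per length of single libraries, so neighbours in this order were not tested.

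The combination answers what happens when mTOR and SHP2 are blocked together. Against untreated cells, the fitted change over the 3 lines was below 0 for all 42 genes, with a median of -0.78 on the log2 scale. Limma, fitted over all genes with treatment and cell line as terms, called 31 of the 42 lower at an adjusted p under 0.05 and none higher. Over all 11548 genes, 15.1% were called lower. At an unadjusted p under 0.05, 38 of the 42 were lower, against 20.2% of all genes. Within a line, 39 of the 42 were lower in 3 of 3 lines, which held for 25.6% of all genes. At least 2-fold lower were 11 genes in Hep3B, 3 in MHCC97H and 16 in Huh7, against 6%, 4.72% and 6.46% of all genes. The calls depended on the lines in the fit. Without Huh7 limma called 0 of the 42 and 0 genes of the whole table lower, and 24 of the 42 were lower at an unadjusted p under 0.05; without Hep3B it called 13, and without MHCC97H 37. With no term for the cell line 0 were called, and 20 were lower at an unadjusted p under 0.05. The shares of 15.1% and 20.2% belong to the fit of all 12 libraries. Apart from the 0 genes called without Huh7, no share of all genes is given for these refits. Their counts are therefore not set against a background.

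**Figure D3:**
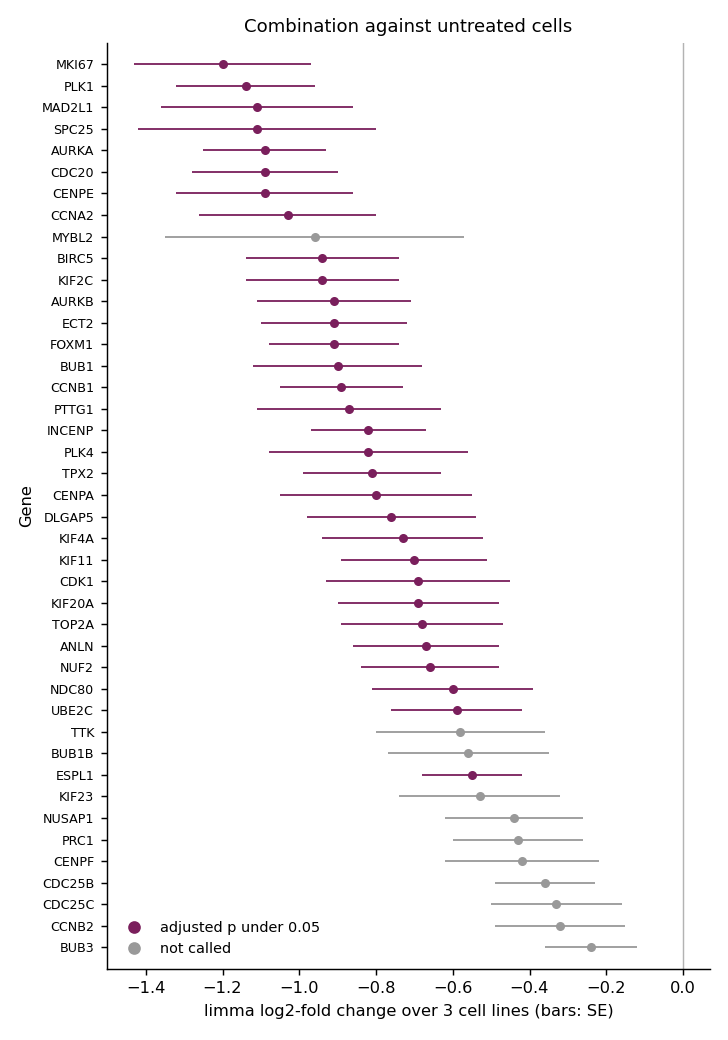
Limma log2-fold change of the combination against untreated cells over 3 cell lines (x axis) for each of the 42 genes (y axis, ordered by size), with bars for the standard error. Purple genes had an adjusted p under 0.05 and grey genes did not. All 42 points lie below 0, from MKI67 at -1.20 to BUB3 at -0.24.

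Among the kinases and cyclins of mitotic entry, 5 of 8 were called lower with the combination. CCNB1 encodes cyclin B1, the partner of CDK1 in mitosis. It stood at 1940 normalised reads untreated, 1516 with AZD8055, 1193 with compound #57 and 1056 with the combination in Hep3B, and this order of treatments is kept below. In MHCC97H it stood at 1736, 990, 1328 and 1049 and in Huh7 at 2234, 1697, 1752 and 1070. The 3 combination libraries were nearly level, all below the lowest untreated library. The fitted change was -0.89 (SE 0.16, limma adjusted p = 0.00443). PLK1, a kinase needed for spindle assembly and mitotic exit, had 2433, 1905, 1328 and 1090 normalised reads in Hep3B, 2287, 1117, 1471 and 1179 in MHCC97H and 1363, 939, 921 and 552 in Huh7. Untreated and combination libraries did not overlap, and the change was -1.14 (SE 0.18, limma adjusted p = 0.00314). AURKA, the centrosomal kinase that activates PLK1, had 1252, 808, 845 and 574 in Hep3B, 1307, 748, 977 and 821 in MHCC97H and 1418, 753, 1051 and 513 in Huh7. Its combination value was the lowest of the 4 treatments in Hep3B and Huh7, and AZD8055 alone was lowest in MHCC97H. It had the smallest adjusted p of the 42 (-1.09, SE 0.16, limma adjusted p = 0.00296).

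CCNA2, cyclin A2 of S and G2 phase, had 1649, 1321, 1069 and 834 normalised reads in Hep3B, 1010, 475, 912 and 616 in MHCC97H and 2084, 1467, 1587 and 798 in Huh7. The change with the combination was -1.03 (SE 0.23, limma adjusted p = 0.00937). CDK1, the kinase that drives entry into mitosis, had 1524, 1404, 1196 and 1139 in Hep3B, 1316, 598, 1185 and 738 in MHCC97H and 2011, 2079, 1731 and 1134 in Huh7. Here the single drugs divided the lines: AZD8055 went with a loss of more than 2-fold in MHCC97H, while the Huh7 value stood level with untreated cells. The fitted change with the combination was -0.69 (SE 0.24, limma adjusted p = 0.0456).

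The remaining genes of entry were not called. CCNB2, a second cyclin B, had 979, 905, 623 and 651 normalised reads in Hep3B, 881, 790, 830 and 925 in MHCC97H and 733, 793, 689 and 534 in Huh7. In MHCC97H the combination library was the highest of the 4. CDC25B, a phosphatase that activates CDK1 at the centrosome, had 998, 1017, 815 and 734 in Hep3B, 3053, 2995, 2253 and 2548 in MHCC97H and 1392, 1361, 1443 and 1080 in Huh7. CDC25C had 273, 273, 216 and 192 in Hep3B, 104, 89, 99 and 106 in MHCC97H and 359, 332, 352 and 254 in Huh7. For these 3 genes the untreated and combination libraries overlapped, and the fitted changes were -0.32 for CCNB2 (SE 0.17, limma adjusted p = 0.155), -0.36 for CDC25B (SE 0.13, limma adjusted p = 0.0511) and -0.33 for CDC25C (SE 0.17, limma adjusted p = 0.153).

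**Figure D4:**
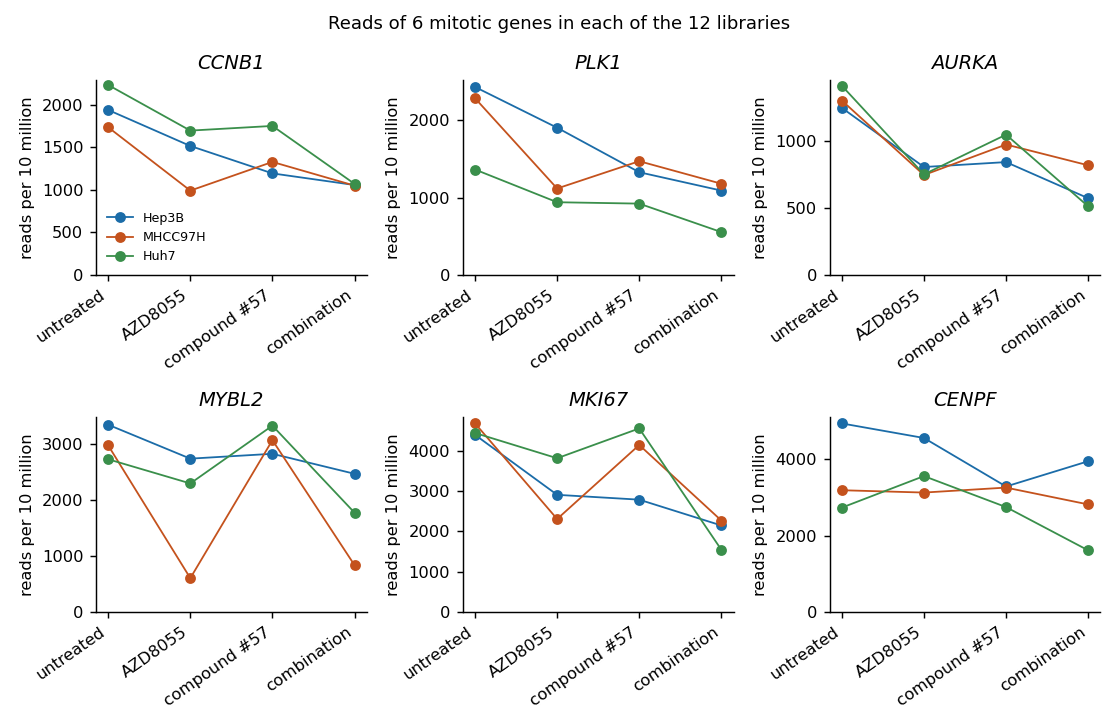
Normalised reads, per 10000000 reads of the library (y axis, from 0), of CCNB1, PLK1, AURKA, MYBL2, MKI67 and CENPF in each of the 12 libraries, by treatment (x axis), with 1 line per cell line and 1 library per point. CCNB1 lies between 1049 and 1070 in all 3 lines with the combination, MYBL2 stands at 606 in MHCC97H with AZD8055, and CENPF in Huh7 is higher with AZD8055 (3565) than untreated (2738).

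The 2 transcription factors of the group behaved differently across the lines. FOXM1 had 2315, 1685, 1838 and 1314 normalised reads in Hep3B, 4085, 1937, 3763 and 2334 in MHCC97H and 2226, 1468, 2209 and 1023 in Huh7. It was lower with AZD8055 than without in every line, and compound #57 alone left it close to untreated in MHCC97H and Huh7. The combination gave -0.91 (SE 0.17, limma adjusted p = 0.00495). MYBL2 had 3353, 2746, 2833 and 2475 in Hep3B, 2982, 606, 3077 and 840 in MHCC97H and 2735, 2302, 3337 and 1779 in Huh7. Both MHCC97H libraries with AZD8055 were far below all others. The fitted change of -0.96 was not called (SE 0.39, limma adjusted p = 0.0818), although the combination libraries did not overlap with the untreated ones.

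Of the 5 genes of the spindle checkpoint, which delays anaphase until all chromosomes are attached, 2 were called lower with the combination. BUB1, a kinase at the kinetochore, had 1504, 1215, 777 and 709 normalised reads in Hep3B, 1434, 802, 1161 and 980 in MHCC97H and 1713, 1366, 1468 and 820 in Huh7 (-0.90, SE 0.22, limma adjusted p = 0.0134). MAD2L1, which binds and restrains CDC20, had 882, 676, 476 and 412 in Hep3B, 866, 422, 934 and 454 in MHCC97H and 1264, 967, 952 and 517 in Huh7 (-1.11, SE 0.25, limma adjusted p = 0.0103). For both genes every combination library lay below every untreated one. BUB1B, the checkpoint protein BUBR1, had 1698, 1497, 1025 and 1001 in Hep3B, 1631, 978, 1666 and 1224 in MHCC97H and 1127, 1096, 1008 and 797 in Huh7. BUB3, which also serves outside the checkpoint and had the smallest change of all 42 genes, had 1665, 1473, 1495 and 1356 in Hep3B, 1457, 1077, 1313 and 1087 in MHCC97H and 1182, 1255, 1186 and 1177 in Huh7. The Huh7 values of BUB3 were almost level, with a log2 ratio of the combination to untreated of -0.01 and a 95% Clopper-Pearson interval from -0.11 to 0.09, which covers counting error only. BUB1B at -0.56 (SE 0.21, limma adjusted p = 0.0611), BUB3 at -0.24 (SE 0.12, limma adjusted p = 0.131) and the kinase TTK at -0.58 (SE 0.22, limma adjusted p = 0.0666) were not called.

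At the centromere and kinetochore, the sites where microtubules grip a chromosome, 5 of 6 genes were called lower. CENPE, a kinetochore motor, had 1281, 957, 709 and 584 normalised reads in Hep3B, 910, 597, 808 and 644 in MHCC97H and 1276, 973, 875 and 409 in Huh7 (-1.09, SE 0.23, limma adjusted p = 0.00806). SPC25 and NDC80 belong to the same microtubule-binding complex. SPC25 had 242, 175, 136 and 93 in Hep3B, 154, 62, 179 and 65 in MHCC97H and 266, 258, 223 and 159 in Huh7 (-1.11, SE 0.31, limma adjusted p = 0.0215), and NDC80 464, 420, 327 and 246 in Hep3B, 512, 302, 465 and 421 in MHCC97H and 787, 766, 692 and 513 in Huh7 (-0.60, SE 0.21, limma adjusted p = 0.0479). Both differed between lines at the start, so that untreated and combination libraries overlapped although each line moved down. NUF2 of the same complex stood at -0.66 (SE 0.18, limma adjusted p = 0.0196) and CENPA, the histone H3 variant of centromeres, at -0.80 (SE 0.25, limma adjusted p = 0.0301). CENPF, a large kinetochore protein, was the gene not called (-0.42, SE 0.20, limma adjusted p = 0.124). It had 4946, 4564, 3292 and 3954 in Hep3B, 3194, 3133, 3263 and 2822 in MHCC97H and 2738, 3565, 2752 and 1618 in Huh7, and thus stood higher with AZD8055 than untreated in Huh7.

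The 3 genes of the chromosomal passenger complex, which corrects faulty attachments and later steers cytokinesis, were all called lower. Its kinase AURKB had 1303, 1113, 946 and 687 normalised reads in Hep3B, 590, 246, 433 and 298 in MHCC97H and 1285, 1027, 1230 and 724 in Huh7. MHCC97H started from the lowest level of the 3 lines. The change was -0.91 (SE 0.20, limma adjusted p = 0.00925). INCENP, the scaffold of the complex, had 1190, 1102, 795 and 663 in Hep3B, 901, 587, 737 and 567 in MHCC97H and 1063, 791, 784 and 544 in Huh7, with the combination lowest in every line (-0.82, SE 0.15, limma adjusted p = 0.00456). BIRC5, known as survivin, stood at -0.94 (SE 0.20, limma adjusted p = 0.00882).

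Motors and organisers of the spindle were called lower in 5 of 6 cases. KIF2C, which takes microtubules apart at centromeres, had 1221, 1001, 599 and 524 normalised reads in Hep3B, 801, 500, 583 and 530 in MHCC97H and 1075, 829, 850 and 533 in Huh7. With the combination the 3 lines were nearly level (-0.94, SE 0.20, limma adjusted p = 0.00761). KIF4A, a chromosome-bound motor, had 982, 836, 646 and 622 in Hep3B, 2638, 1350, 2214 and 1540 in MHCC97H and 1154, 1194, 1115 and 688 in Huh7 (-0.73, SE 0.21, limma adjusted p = 0.0231). TPX2 stood at -0.81, DLGAP5 at -0.76 and KIF11, the motor that pushes the spindle poles apart, at -0.70, with limma adjusted p = 0.00988, 0.0238 and 0.0178. NUSAP1, which bundles microtubules, was not called (-0.44, SE 0.18, limma adjusted p = 0.081).

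All 4 genes of anaphase were called lower. CDC20, the activator of the APC/C, had 1856, 1411, 1151 and 877 normalised reads in Hep3B, 1282, 542, 896 and 656 in MHCC97H and 1851, 1182, 1465 and 796 in Huh7 (-1.09, SE 0.19, limma adjusted p = 0.00423). ESPL1, the protease that cuts cohesin, had 1318, 1126, 1109 and 851 in Hep3B, 754, 533, 709 and 601 in MHCC97H and 924, 772, 824 and 568 in Huh7 (-0.55, SE 0.13, limma adjusted p = 0.0114). Both single drugs left each gene below untreated in every line. PTTG1, the securin that holds ESPL1 inactive, stood at -0.87 and UBE2C at -0.59, with limma adjusted p = 0.0192 and 0.0241.

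Of 5 genes of the central spindle and cytokinesis, 3 were called lower. ECT2, which activates the GTPase RHOA at the cleavage plane, had 3799, 3540, 1969 and 1986 normalised reads in Hep3B, 2891, 1892, 2175 and 1716 in MHCC97H and 2607, 2573, 1992 and 1263 in Huh7 (-0.91, SE 0.19, limma adjusted p = 0.00749). In Hep3B and Huh7 AZD8055 alone left ECT2 close to untreated, at -0.10 and -0.02 on the log2 scale. KIF20A at -0.69 (SE 0.21, limma adjusted p = 0.0307) and ANLN, which anchors the contractile ring, at -0.67 (SE 0.19, limma adjusted p = 0.0239) were the others called. KIF23 and PRC1, which bundle the central spindle, were not. KIF23 had 779, 794, 662 and 489 in Hep3B, 1454, 787, 1301 and 1070 in MHCC97H and 1379, 1526, 1264 and 992 in Huh7 (-0.53, SE 0.21, limma adjusted p = 0.074). PRC1 had 2128, 2253, 1928 and 1616 in Hep3B, 2450, 1517, 2317 and 1843 in MHCC97H and 2463, 2642, 2621 and 1749 in Huh7 (-0.43, SE 0.17, limma adjusted p = 0.0767). Both stood slightly above untreated with AZD8055 in Hep3B and Huh7 and well below it in MHCC97H.

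TOP2A, which untangles DNA before chromosomes separate, had 11812, 9246, 6634 and 6082 normalised reads in Hep3B, 6465, 4324, 5848 and 5360 in MHCC97H and 8315, 8429, 7681 and 4765 in Huh7 (-0.68, SE 0.21, limma adjusted p = 0.0345). MKI67, the antigen Ki-67 used to count dividing cells, had 4393, 2906, 2786 and 2146 in Hep3B, 4677, 2306, 4142 and 2269 in MHCC97H and 4439, 3813, 4552 and 1545 in Huh7. Untreated levels of MKI67 were close to each other in the 3 lines, and it showed the largest fitted decrease of the 42 with the combination (-1.20, SE 0.23, limma adjusted p = 0.00583). PLK4 stood at -0.82 (SE 0.26, limma adjusted p = 0.0333). The 23 genes with CHR letters in the last 120 bases had a median change of -0.73 with the combination, the 12 with a window but without these letters -0.88, and the 7 without a window -0.81.

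AZD8055 alone went with a smaller change that was uneven between the lines. The fitted change was below 0 for 41 of the 42 genes, with a median of -0.40, and limma called only AURKA lower (-0.78, SE 0.16, limma adjusted p = 0.0397), against 0.753% of all genes. This call was lost when any 1 of the 3 lines was left out and with no cell line term. At an unadjusted p under 0.05, 16 were lower, against 12.2% of all genes. Lower in 3 of 3 lines were 30 of the 42, against 25.7% of all genes. The lowest fitted values were MYBL2 at -0.94 and AURKA, and the highest were CDC25B at -0.01 and CENPF at 0.08, which limma did not call. Line by line, MHCC97H had a median of -0.81 over the 42, Hep3B one of -0.23 and Huh7 one of -0.15, while the median of all genes was 0.05, 0.02 and -0.02. In MHCC97H 12 genes were at least 2-fold lower, against 3.07% of all genes. They were MYBL2, SPC25, AURKB, CDC20, CDK1, PLK4, CCNA2, BIRC5, FOXM1, PLK1, MAD2L1 and MKI67. None of the 42 was that low in Hep3B or Huh7, where 0.823% and 2.52% of all genes were.

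Compound #57 alone went with its largest change in Hep3B. The median over the 42 genes was -0.61 for Hep3B, -0.23 for Huh7 and -0.17 for MHCC97H, beside 0.01, 0.03 and 0.08 for all genes. Centring each library on its median, which shifted MHCC97H by up to 0.109, moved the MHCC97H value to -0.27. In Hep3B all 42 genes were lower than untreated, as were 5654 of the 11548 genes of the table. For all 42 the 95% counting interval lay below 0 in Hep3B, with no such interval computed for the other genes. Only KIF2C was at least 2-fold lower there, at -1.03 (95% interval from -1.15 to -0.91), against 3.75% of all genes, and none was in MHCC97H or Huh7, against 0.84% and 1.52%. Across lines the fitted median was -0.33, and limma called 0 of the 42 lower, against 0% of all genes; the smallest adjusted p was 0.104, for PLK1 (-0.69, SE 0.18). Without MHCC97H, PLK1 was called (-0.72, limma adjusted p = 0.0422). Lower at an unadjusted p under 0.05 were 11 of the 42, against 8.1% of all genes. Lower in 3 of 3 lines were 32, against 19.7%. KIF2C was second lowest at -0.61. In the same treatment the 11 hepatocyte genes had median changes of 0.76 (Hep3B), 0.24 (Huh7) and 0.73 (MHCC97H), and their part in these values was not tested. At the top stood MYBL2 at 0.03, which turned to -0.04 with centred libraries and to -0.10 without Huh7, and PRC1 at -0.04, none of them called.

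**Figure D5:**
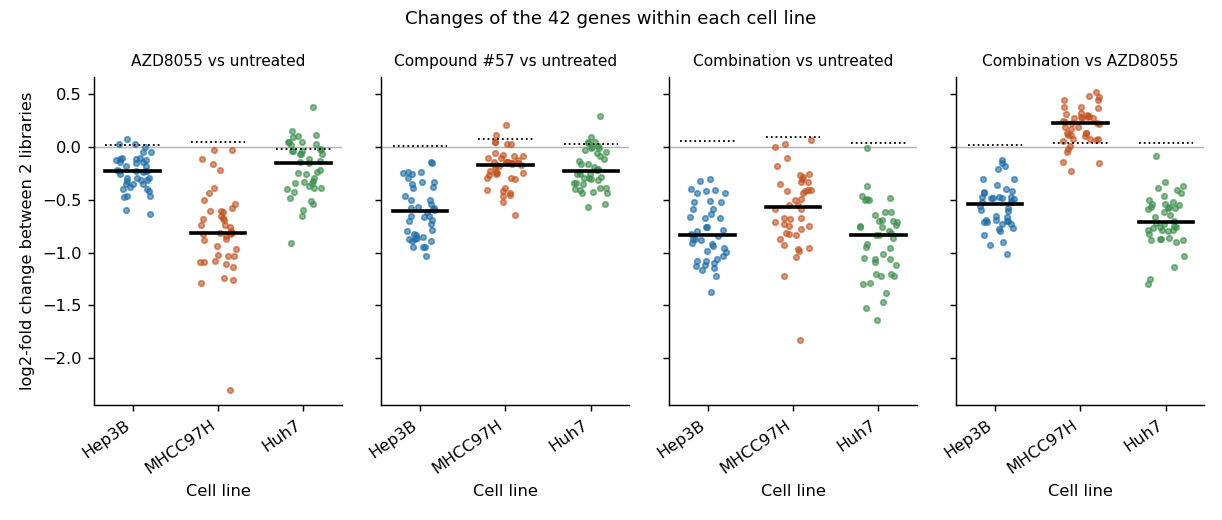
Log2-fold change between 2 libraries of the same line (y axis) for the 42 genes (points) in Hep3B, MHCC97H and Huh7 (x axis), for 4 comparisons (panels). Solid bars are the medians of the 42 genes and dotted bars those of all 11548 genes. Adding compound #57 to AZD8055 (right panel) gives medians of -0.54 in Hep3B and -0.71 in Huh7 but 0.23 in MHCC97H.

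Adding compound #57 to AZD8055 separated MHCC97H from the other lines. Against AZD8055 alone, all 42 genes were lower with the combination in Hep3B, with a median of -0.54, and all 42 in Huh7, with a median of -0.71. In MHCC97H 37 of the 42 were higher, with a median of 0.23. The median of all genes was 0.02, 0.04 and 0.04 in Hep3B, Huh7 and MHCC97H. The same 37 genes were thus lower in Hep3B and Huh7 and higher in MHCC97H, a pattern held by 12.1% of all genes. The 5 genes that were lower in 3 of 3 lines were CDC25B, CENPF, ECT2, INCENP and MKI67, against 16.3% of all genes. The 95% counting interval lay above 0 for 25 genes in MHCC97H and below 0 for CDC25B, CENPF and ECT2. These intervals cover counting error only and were computed for the 42 genes alone, so no share of all genes stands beside them. The largest of the MHCC97H values was TTK, the kinase that starts the checkpoint, at 0.52 (95% interval from 0.36 to 0.69), followed by NDC80 at 0.48 and MYBL2 at 0.47.

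The genes with the largest further decrease differed between Hep3B and Huh7. In Hep3B PTTG1 was the 1 gene at least 2-fold lower than with AZD8055 alone (-1.01, 95% interval from -1.19 to -0.84), against 3.33% of all genes. In Huh7 these were MKI67 at -1.30, CENPE at -1.25, CENPF at -1.14 and ECT2 at -1.03, against 1.84%. In MHCC97H none of the 42 was this low, against 1.13%. Over the 3 lines limma called 0 of the 42 lower, against 0% of all genes, and the smallest adjusted p was 0.217, for ECT2 (-0.67, SE 0.19). Unadjusted, 10 were lower at a p under 0.05, against 5.19% of all genes. This count also depended on the lines: it was 0 without Huh7, 2 without Hep3B, 40 without MHCC97H, and 4 with only the libraries compared. The share of 5.19% belongs to the fit of all 12 libraries, and none is given for these refits. CENPE followed ECT2 at -0.62, and the highest values were BUB3 at -0.07 and MYBL2 at -0.02. MYBL2 turned to 0.16 without Huh7 and to 0.05 without Hep3B.

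Against compound #57 alone, the combination was below 0 for all 42 genes, with a fitted median of -0.39. FOXM1 was the 1 gene that limma called (-0.76, SE 0.17, limma adjusted p = 0.0409), against 1.57% of all genes. It was lost when Huh7 or Hep3B was left out, and without MHCC97H AURKA was called in its place (-0.79, limma adjusted p = 0.0478). Unadjusted, 15 were lower at a p under 0.05, against 12% of all genes. Line by line, Hep3B had a median of -0.19, MHCC97H one of -0.33 and Huh7 one of -0.68, and 34 genes were lower in 3 of 3 lines, against 21.8% of all genes.

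Whether both drugs together gave more than the sum of their single changes also depended on the line. In Huh7 the combination lay below the sum of both log2-fold changes for 42 of 42 genes, with a median difference of -0.48. In MHCC97H it lay above the sum for 39 of 42, with a median of 0.40. Hep3B stood between them with a median of 0.07, and 26 of 42 genes above the sum. The median difference over all genes was close to 0, namely 0.00 for Huh7, -0.04 for MHCC97H and 0.02 for Hep3B. Fitted over the 3 lines, the departure from the sum had a median of -0.01 over the 42, limma called 0 of them and 0% of all genes, and 0 were lower at an unadjusted p under 0.05, against 0.563% of all genes. All of these values share the untreated library of a line, and none within a line has a replicate.

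The difference in response between MHCC97H and the mean of the other lines was tested in a second limma fit, with both drugs as separate terms in each line and 3 residual degrees of freedom. The error of this fit is the departure from the sum described above, not a spread between replicate libraries. That departure ran in different directions in Huh7 and MHCC97H. For AZD8055, averaged over its presence alone and in the combination, 2 of the 42 (4.76%) fell further in MHCC97H, near the 4.46% of all genes. They were MYBL2 (-1.67, SE 0.21, limma adjusted p = 0.00765) and SPC25 (-0.98, SE 0.20, limma adjusted p = 0.0259). At an unadjusted p under 0.05, 9 were lower, against 13.8% of all genes. The compound #57 response was likewise averaged over the drug alone and the drug added to AZD8055. In it 2 of the 42 were called higher in MHCC97H than in the other lines, against 2.75% of all genes: MAD2L1 (0.83, SE 0.17, limma adjusted p = 0.0311) and BUB1B (0.66, SE 0.15, limma adjusted p = 0.0497). BUB1B was not called with centred libraries or with voom. At an unadjusted p under 0.05, 29 of the 42 were higher, against 13.2% of all genes. The median of this difference was 0.52 over the 42. With compound #57 alone the medians of the 42 were -0.17 in MHCC97H, -0.61 in Hep3B and -0.23 in Huh7. Added to AZD8055 they were 0.23, -0.54 and -0.71 in the same order.

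The lines also differed in the level of these genes over all treatments. In this comparison the 4 libraries of a line are its treatments, not repeats of 1 condition. The calls therefore do not measure how well the level of a line repeats. MHCC97H was lower than the mean of Hep3B and Huh7 for 14 genes and higher for 4, while 38.3% of all genes were called lower and 32.7% higher in that comparison, a larger share in both directions than among the 42. CDC25C (-1.46), AURKB (-1.45), PTTG1 (-0.87), MYBL2 (-0.85), CCNA2 (-0.84) and SPC25 (-0.83) were the furthest below. The 4 higher genes were CDC25B (1.32), KIF4A (1.09), FOXM1 (0.76) and CENPA (0.63). These counts moved when 1 treatment was left out of every line. Without the AZD8055 libraries 7 were called lower and 10 higher, with MYBL2 and SPC25 among those no longer called, and without the untreated libraries 9 were lower and 4 higher. CENPA was not called without the compound #57 libraries, nor were CENPA and MYBL2 without the combination libraries. Between Hep3B and Huh7, with the same exposure time, 8 of the 42 were lower in Hep3B and 4 higher, against 24.5% and 30.7% of all genes. NDC80 (-0.94) and KIF23 (-0.93) were furthest below and PLK1 (0.84) and CENPF (0.69) furthest above. Without the untreated libraries 5 were lower and 3 higher, and without those of compound #57 4 were lower and 5 higher. No share of all genes is given for the fits with a treatment left out. Those counts are therefore not set against a background.

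Other genes of the same phase gave like values, but the comparison lists were also chosen with earlier results of these data known. With the combination, limma called 15.1% of all genes lower and 2410 of the 11548 higher. Of 48 further G2/M genes, the combination lowered 38 and raised 1 by limma, with a median of -0.84. The 1 higher gene was WEE1, the kinase that restrains CDK1 (1.58, SE 0.23, limma adjusted p = 0.00279). FAM83D (-1.23, limma adjusted p = 0.00316) and KIF14 (-1.14, limma adjusted p = 0.00443) were among the lower genes. With compound #57 added to AZD8055, 38 of the 48 were lower in Hep3B and Huh7 and higher in MHCC97H, as were 37 of the 42. The APC/C subunits had a median of -0.41 with the combination over 15 genes, of which 7 were called lower, among them ANAPC1 (-0.88, SE 0.16, limma adjusted p = 0.00449), and 1 higher. Among the 10 genes analysed of MuvB, its RB-like and its E2F partners, 3 were called lower, TFDP1 (-0.98), E2F5 (-0.69) and LIN52 (-0.60), and TFDP2 was called higher (0.96), with limma adjusted p = 0.00406, 0.00824, 0.0408 and 0.041.

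The 32 DNA replication genes, which act in S phase, are given beside them. In MHCC97H AZD8055 went with a median of -1.32, and 28 of the 32 were at least 2-fold lower, while the 42 mitotic genes had 12 such genes. In Hep3B the median of the replication genes was -0.12 and in Huh7 -0.30. Adding compound #57 left the MHCC97H median at 0.07 relative to AZD8055 alone, where the mitotic genes stood at 0.23. In Hep3B and Huh7 the replication genes stood at -0.33 and -0.52 in this comparison, and the mitotic genes at -0.54 and -0.71. Lower in Hep3B and Huh7 and higher in MHCC97H were 20 of the 32 replication genes, against 12.1% of all genes. The AZD8055 response, averaged over the drug alone and in the combination, was called lower in MHCC97H than in the other lines for 31 of the 32. Among them were MCM10 (-2.18, SE 0.22, limma adjusted p = 0.00545) and E2F1 (-1.87, SE 0.20, limma adjusted p = 0.00545). This difference was called for 2 of the 42 and for 4.46% of all genes. The error of that fit is the departure from the sum of both drugs, and the lists were not tested against each other. With compound #57 alone the replication genes had a median of 0.08 in MHCC97H, -0.23 in Hep3B and -0.22 in Huh7. With the combination limma called 19 of the 32 lower over the 3 lines, against 15.1% of all genes, with a median of -0.80.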

How the data were processed

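RNA of Hep3B, MHCC97H and Huh7 cells had been sequenced from stranded poly(A) libraries, 1 per line and treatment, aligned to hg38. The aligner, the read counting and the normalization are not given in the sources used here, nor whether counting used strand. The authors deposited log2 values per gene and library. After 0.001 was subtracted, all values were the log2 of whole reads per 10000000 library reads plus 1, within 0.02 reads, so library totals and reads were recovered. No column was without a sample. Of the 11548 genes, 305 have a 0 in at least 1 library; 18 bore a number in place of a symbol and were tested without a name.

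Limma 3.58.1 (R 4.3.3; lmFit, eBayes with trend) was fitted to the log2 values of all genes in the 12 libraries, with terms for treatment and for cell line (6 residual degrees of freedom), and adjusted by Benjamini-Hochberg over all genes. Pairing comes from the cell line itself, which the replicate number stands for. For treatments, each p-value sets the mean change over the lines against the spread left by the terms for treatment and cell line. That spread is shared by all 4 treatments and moderated over all genes. It is thus not the line-to-line variation of 1 change alone. For levels between lines, each p-value sets the mean difference over the treatments against the same spread. Within a line no p-value was computed, and the ratio of reads was given its exact 95% Clopper-Pearson interval, which covers counting error only. Drug responses of lines were compared in a fit of both drugs within each line. The error of that fit is the departure of the combination from the sum of both log2-fold changes. Alternatives were 10 added instead of 1, the upper 75% of genes by mean, centred libraries, no cell line term, voom on the recovered reads, only the libraries compared, and each line left out (for levels between lines, each treatment). Calculations were tested on simulated data.

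The 42 genes and the comparison lists were chosen with earlier results of these data known. Reads in all libraries are given for 12 genes of a fixed list, for the genes called (at most 6 per comparison, smallest p first), and for the 2 highest and 2 lowest fitted changes in 4 comparisons; genes of other lists are named where called, at most 4 per list and comparison. Transcript lengths came from GENCODE release 44 and promoters from RefSeq (GRCh38.p14). Python 3.11.15 with pandas 2.3.3, scipy 1.17.1 and matplotlib 3.10.9 was used.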

Additional observations from a re-analysis of the deposited data

Results flagged for a closer look

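In 4 genes the response of MHCC97H, after 24 h, differed from the mean of Hep3B and Huh7, after 48 h, by limma's test of the difference. Each response was averaged over a drug alone and in the combination. For AZD8055 the differences were -1.67 for MYBL2 (limma adjusted p = 0.00765) and -0.98 for SPC25 (limma adjusted p = 0.0259). These are 2 of the 42, or 4.76%, near the 4.46% of all genes called in that direction. For compound #57 the differences were 0.83 for MAD2L1 (limma adjusted p = 0.0311) and 0.66 for BUB1B (limma adjusted p = 0.0497), also 2 of the 42, against 2.75% of all genes. BUB1B was not called with centred libraries or with voom. With compound #57 added to AZD8055, 37 of the 42 genes were below AZD8055 alone in Hep3B and Huh7 but above it in MHCC97H. This difference between lines was not tested on its own, but it is part of the averaged compound #57 response.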

How the results depend on the processing

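Of the 42 genes, AURKA was the 1 called lower with AZD8055; 2 were called with the 75% of genes with the highest mean, 3 with centred libraries, and 0 with no cell line term (no replicate block), with only the libraries compared, and without any 1 line (0 to 0). For compound #57, leaving out a line gave 0 to 1. For the combination, 31 became 0 with no replicate block and 0 to 37 without a line; 26 of the 31 were called with only the libraries compared and all 31 with centred libraries. Against compound #57 alone, the 1 call became 2 with the 75% of genes, 2 with voom, 0 with no replicate block, 0 with only the libraries compared, and 0 to 1 without a line. The compound #57 response of MHCC97H kept 1 of 2 calls with centred libraries and 1 with voom, losing BUB1B in both. Levels between lines, with each treatment left out in turn, gave 13 to 20 calls for MHCC97H against the other lines and 8 to 13 for Hep3B against Huh7. The median for compound #57 in MHCC97H was -0.27 with centred libraries. The block comes from the shared cell line. No share of all genes is set beside the counts of these alternatives, so they show only how the calls moved. Among the genes and comparisons followed singly, signs turned for MYBL2 with compound #57 (-0.04 with centred libraries; -0.10 without Huh7 to 0.17 without Hep3B), and in the combination against AZD8055 for CDK1 (-0.59 without MHCC97H to 0.00 without Huh7) and MYBL2 (-0.26 without MHCC97H, 0.05 without Hep3B, 0.16 without Huh7). Over the whole list, the genes below 0 went from 42 to 38 without Huh7 in the combination against AZD8055 and against compound #57, from 41 to 38 without Hep3B for compound #57, and from 41 to 38 without MHCC97H for AZD8055. The cause of these changes was not tested. With 1 library per line and treatment, no difference within a line has a replicate, and 24 h and 48 h of exposure cannot be told apart from the lines.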
